A study of Mus musculus with 6 samples.

Results

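The genes described here encode the machinery that brings proteins into mitochondria, folds them, cuts them and degrades them, together with the proteins that fuse mitochondria. They were chosen by name, as a list of 37 genes, with earlier results of these data known. A gene counted as measured where an array probe set (a group of short probes that together read 1 transcript) carried its symbol and no other. By that rule 36 of the 37 were measured, of 18193 genes on the arrays, and each was read from its probe set with the highest mean over all 6 arrays. The missing gene is the prohibitin Phb, because both of its probe sets also carry the symbol of a second gene. The arrays measured 6 livers from male mice aged 10 weeks. The labels give 3 of them as wild-type (WT) and 3 as L-Pex5 knockout (KO), all on a mixed background that the labels write as Alb-Cre Tac:[Sw]fBR. Pex5 is the receptor that carries new enzymes into peroxisomes, and Alb-Cre is a recombinase driven by the promoter of albumin, a hepatocyte gene. The tissue was liver, which also holds cells that do not make albumin. The labels number the livers 1 to 3 within a group, name no batch, and do not say whether each liver is a separate animal, so p-values measure only the spread between these samples.

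Nearly all mitochondrial proteins are made in the cytosol and enter through the TOM complex of the outer membrane. Proteins with a cleavable leader pass on through the TIM23 complex, are pulled inside by the mitochondrial HSP70 and lose the leader to the processing peptidase, while small TIM chaperones guide carrier proteins across the intermembrane space to the TIM22 complex. Inside, the HSP60 and HSP10 chamber folds proteins and the proteases LONP1 and CLPXP remove damaged ones. Genes of this group are known to respond when proteins misfold in mitochondria, a programme in which the transcription factors ATF4, ATF5 and CHOP have been placed. Hepatocytes are rich in mitochondria and depend on this machinery for their oxidative enzymes.

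Values are log2 levels, on which a difference of 1 is a doubling of the measured level, differences are KO minus WT, and a gene is said to have risen or fallen where limma's adjusted p was under 0.05 over all 18193 genes. Over all genes, r was 0.9892 or more between arrays of a group and 0.9758 or less across the groups. The 2 probe sets of Pex5 differed by 0.15 ± 0.13 and 0.18 ± 0.11 (SE, n = 3 per group), and whether they cover the deleted part is not given in the sources used here, so they check nothing about the labels. The bacterial and phage control transcripts, read by 45 probe sets, lay lower on the KO arrays, at a mean of 9.28 against 9.72 (exact two-sided permutation p = 0.1, the smallest that 3 against 3 arrays can give). Centring the arrays on these controls raised every difference by 0.44, moved the median of all genes from -0.055 to 0.39 and raised the share of higher among changed genes from 59.3% to 95.9%. Of the 36 genes 33 were then higher and 0 lower, where 60.9% of all genes were higher and 2.61% lower, so directions below are relative to the bulk of genes as the deposited values set it. The number of arrays limits the precision.

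In the KO livers, 22 of the 36 genes were higher and 0 lower, where 14.2% of all genes were higher and 9.75% lower. The median difference of the 36 was 0.37, against -0.055 over all genes. All 36 lay above the background level of 4.90 set by olfactory receptor genes. When only the 12042 genes above it were tested, 21.8% were higher and their median was 0.035. At an unadjusted p under 0.05, limma placed 25 of the 36 higher and 0 lower, against 3636 higher and 3372 lower of all 18193 genes. The KO arrays lay wholly above the WT arrays in 27 of the 36 genes and wholly below in 0, while 22.1% of all genes lay wholly above and 22.6% wholly below. The protease Lonp1, the small TIM chaperone Timm10, the mitochondrial HSP70 Hspa9 and the import receptor Tomm20 had the largest differences. The 4 genes with differences below 0, none of which passed, were Timm17b, Tomm34, Htra2 and Pmpca, and all 4 turned positive with the arrays centred on the controls. Whole liver was measured, so more cells of a type and more RNA per cell cannot be told apart.

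How many genes passed depended on single KO arrays, although no gene passed as lower in any of the 17 settings run. Leaving out KO replicate 2 left 8 higher genes (8.23% of all genes were then higher), and leaving out KO replicate 1 left 11 (8.82%). With any other array left out, 16 to 19 were higher (10.8% to 13.3% of all genes). The median difference moved little in these 6 settings, from 0.33 to 0.39. Under all 16 alternatives 7 of the 22 genes passed, namely Hspd1, Hspa9, Lonp1, Tomm20, Timm8a1, Timm10 and Timm17a. An adjusted p under 0.01 is itself 1 of the 16, and only these 7 passed it, where 7.06% of all genes were higher.

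**Figure D1:**
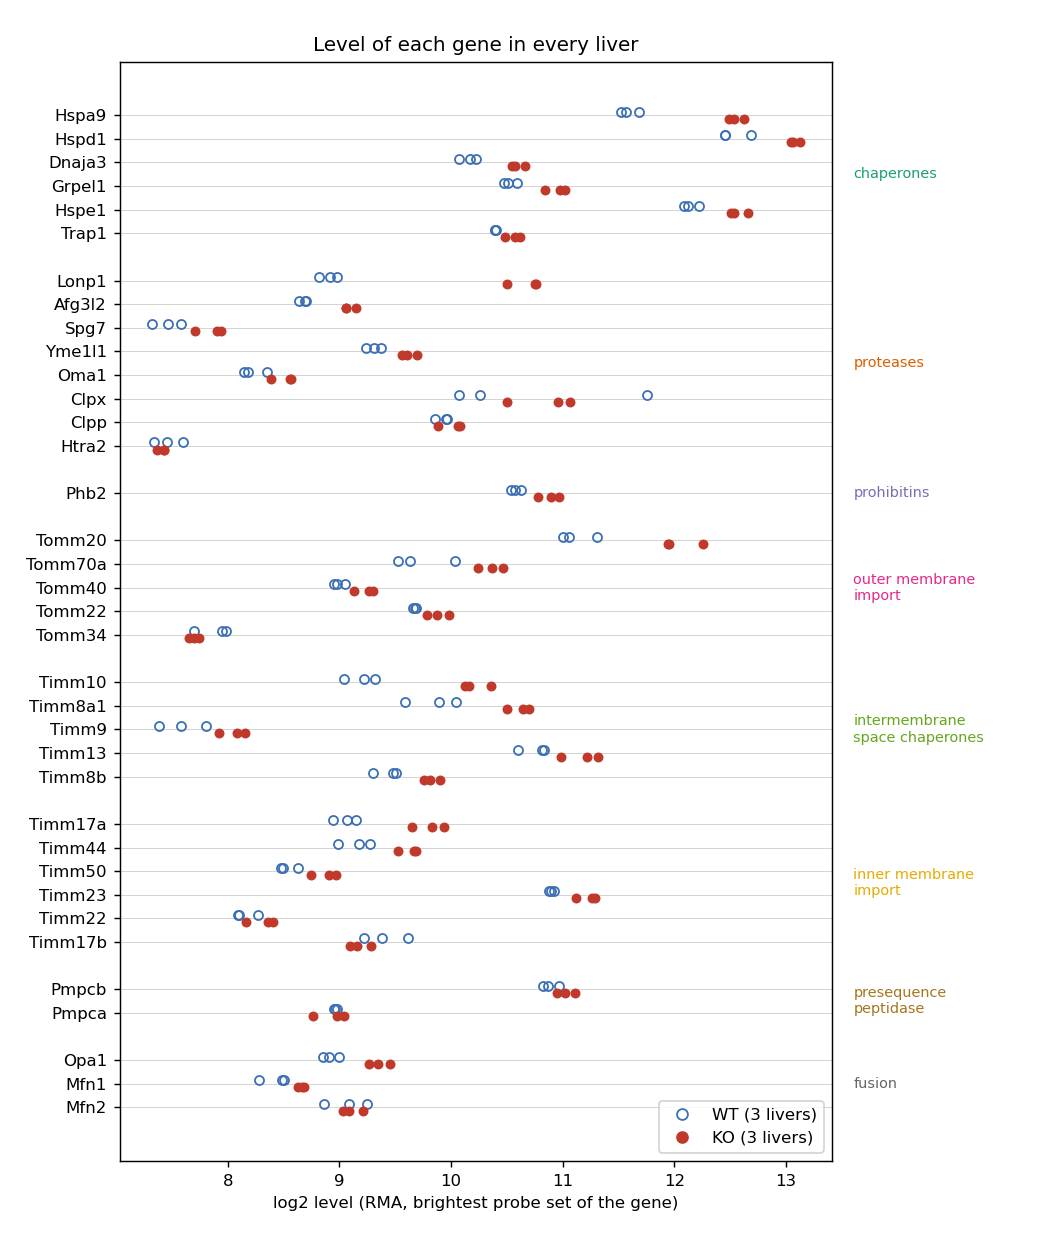
Level of each of the 36 genes (log2, x axis) in every liver, with genes grouped by role on the y axis; open blue circles are the 3 WT livers and filled red circles the 3 KO livers. The KO circles lie wholly to the right of the WT circles in 27 genes, and the WT circles of Clpx spread widely because WT replicate 1 stood at 11.75.

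RefSeq promoter windows of GRCm38.p6, 250 bases before to 50 after a gene's start, were found for 34 of the 37 genes and searched on both strands for 4 motifs. Stretches that lie before the start are shown for Hspe1 and Timm9, because these hold the heat shock element, for Lonp1, because it rose the most, and for Tomm20, because it holds the NRF1 element and rose the most among the genes that do. Capitals mark the matched letters.
Hspe1, chr1:55088028-55088107, plus strand: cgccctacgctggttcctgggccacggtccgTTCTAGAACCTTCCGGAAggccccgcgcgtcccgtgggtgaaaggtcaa
Timm9, chr12:71136836-71136915, minus strand: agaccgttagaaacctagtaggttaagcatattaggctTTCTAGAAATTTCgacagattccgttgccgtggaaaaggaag
Lonp1, chr17:56626904-56627003, minus strand: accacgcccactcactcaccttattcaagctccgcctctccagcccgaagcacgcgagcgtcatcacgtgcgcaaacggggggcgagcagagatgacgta
Tomm20, chr8:126945922-126946001, minus strand: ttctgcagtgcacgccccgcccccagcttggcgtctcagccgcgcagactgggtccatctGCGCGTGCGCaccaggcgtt

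The heat shock element (the letters GAA, TTC and GAA, with any 2 bases between neighbours) was held by 3 of the 34 genes, Hspd1, Hspe1 and Timm9, and by 0.603% of all 32851 windows. Hspd1 and Hspe1 lie head to head on chromosome 1, and their match is the same stretch of DNA. It consists of 2 matches on opposite strands that share 8 bases and together span 18 bases, chr1:55088059-55088076. The stretch ends 72 bases before the start of Hspe1 and begins 127 bases before an annotated start of Hspd1 at position 55087932, while another annotated start of Hspd1, at 55088243, lies on the far side of the Hspe1 start. The NRF1 element (GCGCA and GCGC with any base between them) was held by 8 of the 34 genes and by 4.6% of all windows. The 8 were Hspd1, Dnaja3, Spg7, Oma1, Phb, Tomm20, Timm8b and Opa1. The ATF4 element (TGATGCAA) was held by none of the 34 and by 0.895% of all windows, and the CCAAT box (CCAAT) by 13 of the 34 and by 37.4% of all windows. The 34 genes have 39 windows, and the shares of all windows count windows, not genes. Of the 39, 3 held the heat shock element, 8 the NRF1 element, 0 the ATF4 element and 13 the CCAAT box. Matches of different motifs overlapped 0 times in these windows. A match is a description of letters, and no binding was measured here.

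The chaperones of the matrix rose in 5 of 6 genes, and in all 6 the KO arrays lay wholly above the WT arrays. Of all genes 14.2% were higher, 21.8% when only genes above background were tested, and 22.1% lay wholly above. Hspa9, also called mortalin, is the mitochondrial HSP70 that pulls entering proteins through the inner membrane and folds them. It stood at 11.52, 11.69 and 11.57 in the WT livers and at 12.54, 12.63 and 12.49 in the KO livers. That is a 1.95-fold rise (0.96 ± 0.093 SE, n = 3 per group, adjusted p = 0.000357), with a gap of 0.80 between the highest WT and the lowest KO liver. Of its 5 probe sets 4 were higher, by 0.72 to 1.00, and the fifth, with a mean of 4.56, lay under the background level of 4.90 set by olfactory receptor genes. Grpel1, a nucleotide exchange factor that resets this HSP70, was 1.34-fold higher (0.42 ± 0.093, adjusted p = 0.0144), and Dnaja3, a J-domain cochaperone, 1.36-fold (0.44 ± 0.090, adjusted p = 0.0106). Without KO replicate 2 both missed the threshold (adjusted p = 0.0603 and 0.0508), as did Grpel1 without KO replicate 1 (0.0678), and the mean of the probe sets of Dnaja3 also missed it.

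Hspd1 and Hspe1 encode HSP60 and HSP10, the barrel and lid of the folding chamber, and share the stretch shown above. Hspd1 stood at 12.46, 12.68 and 12.45 in WT and at 13.06, 13.04 and 13.12 in KO. Hspe1 stood at 12.09, 12.22 and 12.12 in WT and at 12.53, 12.51 and 12.66 in KO. Neither gene's groups overlapped, and the rises were 1.46-fold for Hspd1 (0.54 ± 0.099, adjusted p = 0.00637) and 1.34-fold for Hspe1 (0.42 ± 0.092, adjusted p = 0.0141). Hspe1 missed the threshold without KO replicate 3 (adjusted p = 0.0526), the highest adjusted p among its 16 alternatives, of which the lowest was 0.000414. Its second probe set was also higher (0.49 ± 0.099). Trap1, the mitochondrial HSP90, differed by 0.16 ± 0.085 and did not pass (adjusted p = 0.207), though its KO arrays, from 10.48 to 10.62, lay above its WT arrays, from 10.39 to 10.41. Its second probe set was higher by 0.36 ± 0.10, with p adjusted over all 45037 probe sets (0.0472), of which 9.59% were higher.

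Among the proteases 4 of 8 rose, where 14.2% of all genes did, and the rest did not pass. Lonp1 (chr17:56614297-56626903) encodes the ATP-dependent protease of the matrix that degrades oxidised and misfolded proteins. It stood at 8.98, 8.81 and 8.91 in WT and at 10.50, 10.76 and 10.75 in KO, so the lowest KO liver lay 1.53 above the highest WT liver. The rise was 3.41-fold (1.77 ± 0.11, adjusted p = 3.45e-05), which ranked Lonp1 at place 167 of the 18193 genes by difference and first among the 36. It was read by 1 probe set. Of the other matrix protease, CLPXP, neither subunit passed. Clpp, its proteolytic ring, differed by 0.081 ± 0.096.

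Clpx, the unfoldase that feeds CLPP, was the most variable of the 36 genes within WT. It stood at 11.75, 10.08 and 10.26 in WT and at 11.07, 10.96 and 10.50 in KO, so WT replicate 1 lay above every KO liver and the other WT livers below every KO liver. The difference was 0.15 ± 0.40 with all arrays. Without WT replicate 1 it was 0.68 and passed (adjusted p = 0.0372, from 0.0372 to 0.964 over 16 alternatives). In the second probe set of Clpx WT replicate 1 was again the highest liver, with 9.07 against 6.58 and 5.94 in the other WT livers.

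Of the inner membrane proteases Afg3l2, Spg7 and Yme1l1 rose and Oma1 did not pass. Afg3l2 and Spg7, subunits of the m-AAA protease that faces the matrix, rose 1.33-fold (0.41 ± 0.085, adjusted p = 0.0106) and 1.32-fold (0.40 ± 0.11, adjusted p = 0.0347). Yme1l1, the i-AAA protease that faces the intermembrane space, rose 1.25-fold (0.32 ± 0.090, adjusted p = 0.0377). Without KO replicate 2 the adjusted p was 0.0511, 0.126 and 0.106 for Afg3l2, Spg7 and Yme1l1, so all 3 missed the threshold. Spg7 missed it under 8 of the 16 alternatives, in 1 of which its sign turned (-0.17, from a probe set under background), and Yme1l1 under 9. For both genes these included WT replicate 2, WT replicate 3 or KO replicate 1 left out (highest adjusted p = 0.136), and Yme1l1 also without KO replicate 3 (0.0686). Oma1, the stress-activated protease that cuts OPA1, differed by 0.28 ± 0.10 (adjusted p = 0.0851), with its KO arrays just above its WT arrays. Htra2, a serine protease of the intermembrane space, differed by -0.053 ± 0.098. Phb2, a prohibitin, which forms ring scaffolds around the m-AAA protease, rose 1.23-fold (0.30 ± 0.092, adjusted p = 0.0466), close to the threshold. That call was lost under 10 of 16 alternatives, among them each of the 6 that left out an array (adjusted p from 0.0525 to 0.160), and none of its 4 probe sets passed when p was adjusted over all probe sets.

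**Figure D2:**
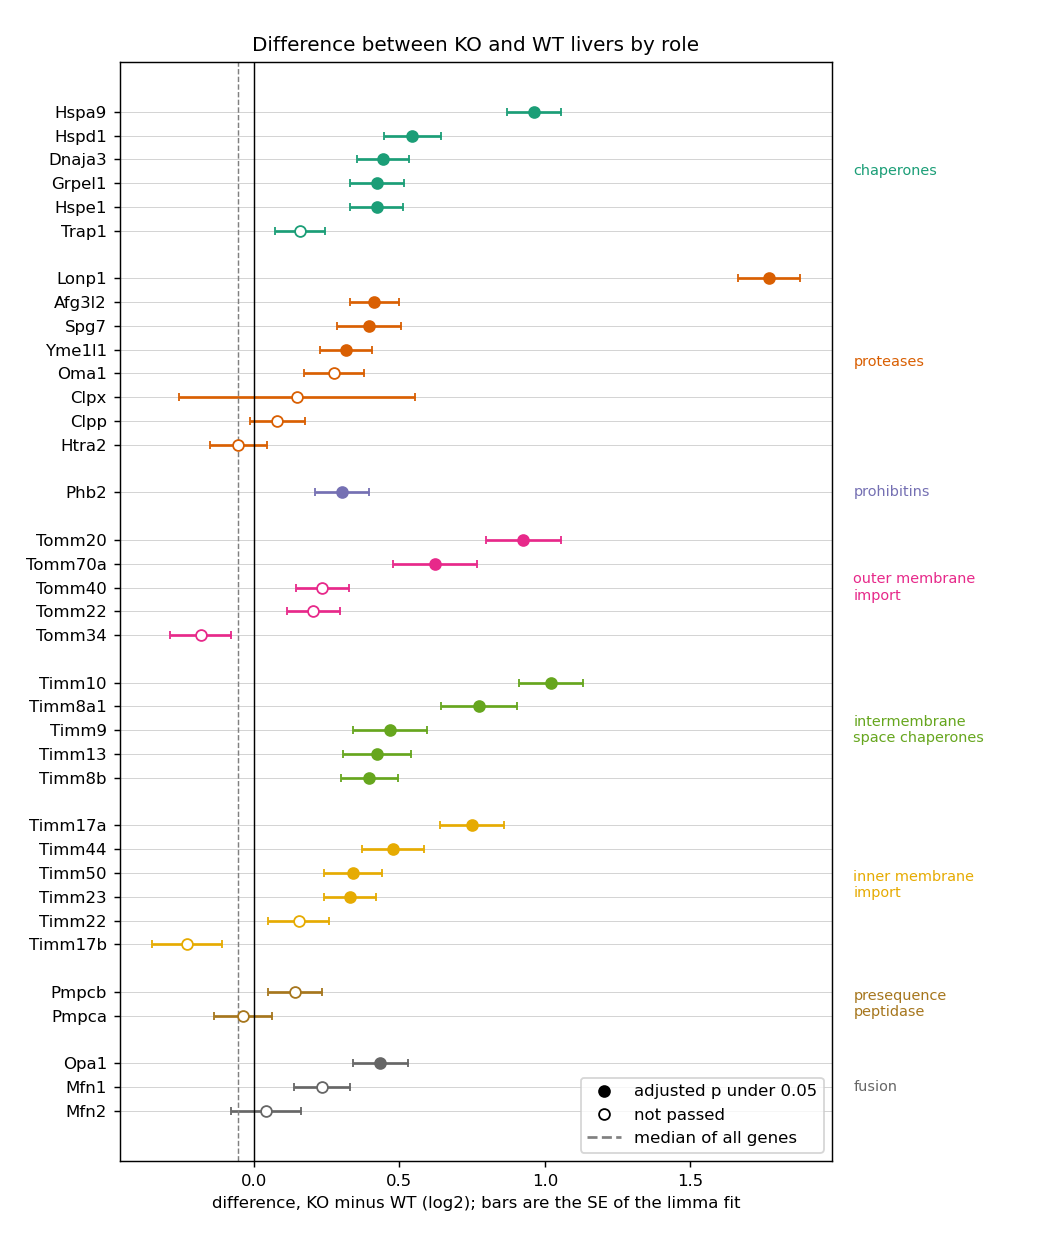
Difference between KO and WT (log2, x axis) for each of the 36 genes by role, with bars for the SE of the limma fit; filled points passed an adjusted p of 0.05 and open points did not. Lonp1 stands alone at 1.77, all 5 small TIM chaperones are filled, and the dashed line marks the median of all genes at -0.055.

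At the outer membrane 2 of 5 import genes rose, where 14.2% of all genes did, and both encode receptors. Tomm20, the receptor for leader sequences, stood at 11.01, 11.06 and 11.31 in WT and at 11.94, 12.26 and 11.95 in KO. The groups did not overlap, and the rise was 1.90-fold (0.93 ± 0.13, adjusted p = 0.00193). Its 6 probe sets did not all go the same way. In 4 of them the level was higher, by 0.55 to 0.93. In a dimmer one, with 6.86, 6.97 and 6.46 in WT and 6.01, 6.19 and 6.19 in KO, it was lower (-0.64 ± 0.14, adjusted p = 0.0212 over all probe sets, of which 6.69% were lower).

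Tomm70a, the receptor for carrier proteins and a docking site for cytosolic chaperones, stood at 9.63, 10.04 and 9.53 in WT and at 10.24, 10.46 and 10.36 in KO. It rose 1.54-fold (0.62 ± 0.14, adjusted p = 0.0176). Of its 5 probe sets only the chosen one passed, while the mean of its probe sets missed the threshold (0.27, adjusted p = 0.108). The call was also lost without KO replicate 2 (adjusted p = 0.0731) or KO replicate 3 (0.0545), and the lowest value among its alternatives was 0.000864. The pore subunit Tomm40 and the central receptor Tomm22 differed by 0.24 ± 0.091 (adjusted p = 0.0966) and 0.20 ± 0.090 (adjusted p = 0.134), with KO arrays above WT arrays in both. Tomm34, a cytosolic cochaperone of import, differed by -0.18 ± 0.10 (adjusted p = 0.232).

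The small TIM chaperones of the intermembrane space rose in all 5 genes, where 14.2% of all genes rose. In none did the groups overlap, while in 22.1% of all genes the KO arrays lay wholly above the WT arrays. Timm10, which pairs with TIMM9 to escort carrier proteins, stood at 9.05, 9.32 and 9.22 in WT and at 10.12, 10.36 and 10.16 in KO, a 2.03-fold rise (1.02 ± 0.11, adjusted p = 0.000614). Its partner Timm9 stood at 7.58, 7.80 and 7.38 in WT and at 8.08, 8.16 and 7.92 in KO, a 1.38-fold rise (0.47 ± 0.13, adjusted p = 0.033). The gap between the groups was thus 0.81 in Timm10 and 0.12 in Timm9.

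Timm8a1 and Timm13 form the other small TIM complex, and Timm8b is a close relative of Timm8a1. Timm8a1 (deafness-dystonia peptide 1) stood at 9.89, 10.04 and 9.59 in WT and at 10.70, 10.65 and 10.50 in KO. It rose 1.71-fold (0.77 ± 0.13, adjusted p = 0.00477), and its second probe set by 0.84. Timm13 rose 1.34-fold (0.42 ± 0.12, adjusted p = 0.0361) and Timm8b 1.32-fold (0.40 ± 0.097, adjusted p = 0.0218). Timm9, Timm13 and Timm8b lost their calls without KO replicate 1 (adjusted p = 0.103, 0.115 and 0.0744) or KO replicate 2 (0.121, 0.132 and 0.0886). Timm9 and Timm13 also lost them without WT replicate 3 (0.0669 and 0.0787), Timm9 without WT replicate 1 (0.0662) and Timm13 without WT replicate 2 (0.0601).

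Of the inner membrane import genes 4 of 6 rose, where 14.2% of all genes did. Timm17a, a channel subunit of the TIM23 complex, stood at 9.15, 9.07 and 8.94 in WT and at 9.83, 9.93 and 9.65 in KO. It rose 1.68-fold (0.75 ± 0.11, adjusted p = 0.00245). The paralogue Timm17b, which can take its place in the complex, stood at 9.22, 9.38 and 9.61 in WT and at 9.16, 9.09 and 9.28 in KO, with overlap (-0.23 ± 0.12, adjusted p = 0.202), and its second probe set differed by -0.17. The difference between the paralogues' responses was not tested.

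The pore Timm23, the presequence receptor Timm50 and Timm44, which tethers the HSP70 to the channel, rose 1.26-fold, 1.27-fold and 1.39-fold (0.33 ± 0.090, 0.34 ± 0.10 and 0.48 ± 0.11, with adjusted p of 0.0325, 0.0425 and 0.0155). All 3 probe sets of Timm44 were higher. Those of Timm50 disagreed: a second one above background differed by -0.20 ± 0.14, and the mean of its 3 probe sets missed the threshold (0.062, adjusted p = 0.702), as did quantile normalization (0.158). Timm23 was read by 1 probe set. Each of the 3 genes missed the threshold without KO replicate 1 (adjusted p = 0.115, 0.148 and 0.0673) and without KO replicate 2 (0.120, 0.134 and 0.0639). Timm23 and Timm50 also missed it without WT replicate 1 or WT replicate 2 (adjusted p from 0.0538 to 0.1003), and Timm23 without WT replicate 3 (0.0519). Timm22, the pore for carrier proteins, differed by 0.15 ± 0.10 (adjusted p = 0.312). Neither subunit of the processing peptidase that removes leaders passed, and the groups overlapped in the brightest probe sets, with -0.038 ± 0.10 for Pmpca and 0.14 ± 0.093 for Pmpcb. In their second probe sets the KO arrays lay wholly above the WT arrays without passing, at 0.25 ± 0.096 for Pmpca and 0.38 ± 0.13 for Pmpcb (adjusted p = 0.115 and 0.0867 over all probe sets).

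Among the fusion genes 1 of 3 rose, where 14.2% of all genes did. Opa1, the dynamin-like protein that fuses inner membranes and shapes cristae, stood at 8.996, 8.91 and 8.85 in WT and at 9.35, 9.45 and 9.26 in KO. Its brightest probe set rose 1.35-fold (0.43 ± 0.094, adjusted p = 0.0137). The others did not follow: 1 differed by 0.039 ± 0.11, and 1 by -0.29 ± 0.097, with 8.66, 8.74 and 8.72 in WT and 8.53, 8.44 and 8.29 in KO, wholly below WT but not passing (adjusted p = 0.0814 over all probe sets). The mean of the 3 probe sets differed by 0.061 (adjusted p = 0.626), the highest p among its 16 alternatives, of which the lowest was 0.00023. The call was also lost without KO replicate 1 (0.0540) or KO replicate 2 (0.0614). The outer membrane mitofusins did not pass, Mfn1 with 0.23 ± 0.096 (adjusted p = 0.114) and Mfn2 with 0.042 ± 0.12 (adjusted p = 0.817). Mfn1 had 8.48, 8.50 and 8.28 in WT and 8.68, 8.63 and 8.66 in KO, without overlap. A second probe set of Mfn1 differed by 0.30 ± 0.093, wholly above WT (adjusted p = 0.0610 over all probe sets). A dimmer one differed by -0.19 ± 0.14, with overlap. In the setting that read Mfn1 from the second probe set it passed as higher, where 12.7% of all genes did.

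**Figure D3:**
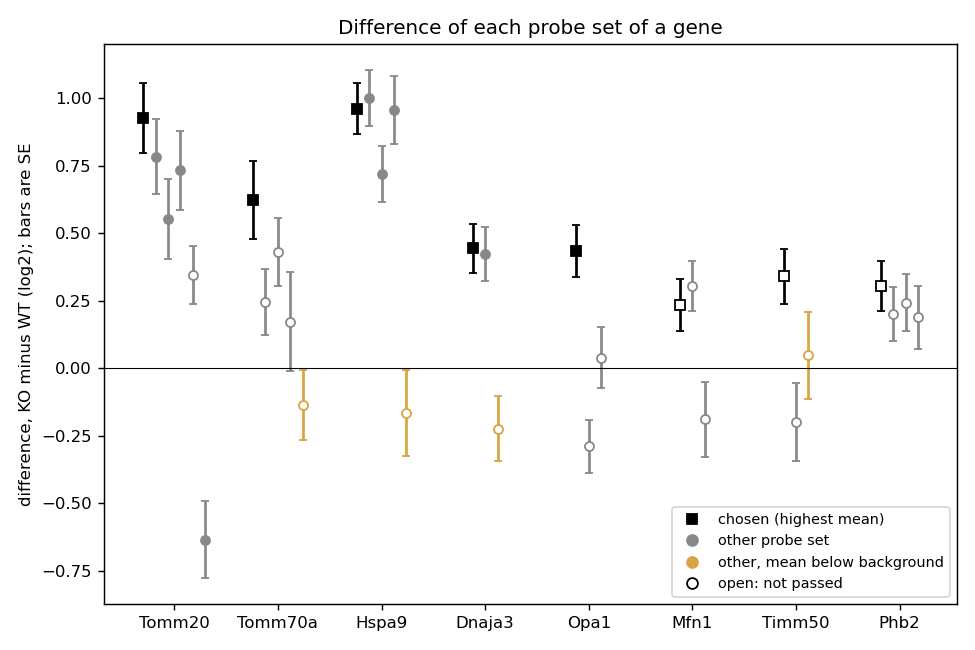
Difference between KO and WT (log2, y axis, bars are SE) for each probe set of 8 genes, with squares for the probe set of highest mean, tan for probe sets whose mean lies under background, and open symbols where p adjusted over all 45037 probe sets was not under 0.05. Tomm20 has a filled point at -0.64 beside 4 filled points above 0, and the 3 points of Opa1 lie on both sides of 0.

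Across the 36 genes, 25 were read by more than 1 probe set, and in 11 of these the probe sets had differences on both sides of 0. In Hspa9, Dnaja3, Spg7, Tomm70a and Mfn2 the probe sets that went below 0 were dim ones under background. Replacing the probe set of highest mean by the mean of all probe sets of a gene left 15 of the 36 higher and 0 lower, with a median of 0.26, where 12.1% of all genes were higher.

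Livers of a group differed little from each other in these genes, with a median SD over the 36 genes of 0.10 in WT and 0.095 in KO. KO replicate 3 was the lowest KO liver in 24 of the 36 genes (66.67%), whereas it was the lowest in 36.04% of all genes. Its median difference from the WT mean over the 36 genes was 0.25, against 0.39 in KO replicate 1 and 0.39 in KO replicate 2. Without it 18 of the 36 genes passed as higher, where 10.8% of all genes did, and the median of the 36 rose to 0.39.

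The same liver lay above the other KO livers in the cytosolic heat shock genes Hspa1a, Hspa1b and Dnajb1. WT replicate 1 was the lowest WT liver in each of them. Hspa1a and Hspa1b, the stress-inducible cytosolic HSP70 genes, were singled out here after their values were seen. Hspa1a stood at 7.68, 9.97 and 8.24 in WT and at 5.84, 5.94 and 9.22 in KO, and Hspa1b at 10.38, 12.65 and 12.30 in WT and at 9.75, 9.77 and 12.44 in KO. KO replicate 3 lay within the WT range in both genes, and the other KO livers lay below it. Neither gene passed, with differences of -1.63 ± 0.93 and -1.12 ± 0.81, and the groups overlapped widely. Dnajb1, their J-domain partner, stood at 8.73, 10.20 and 9.63 in WT and at 9.04, 9.07 and 10.46 in KO. The rises of Hspa9, Hspd1 and Hspe1, in contrast, were of like size in all 3 KO livers, and the part of the cytosolic heat shock genes in them was not tested.

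**Figure D4:**
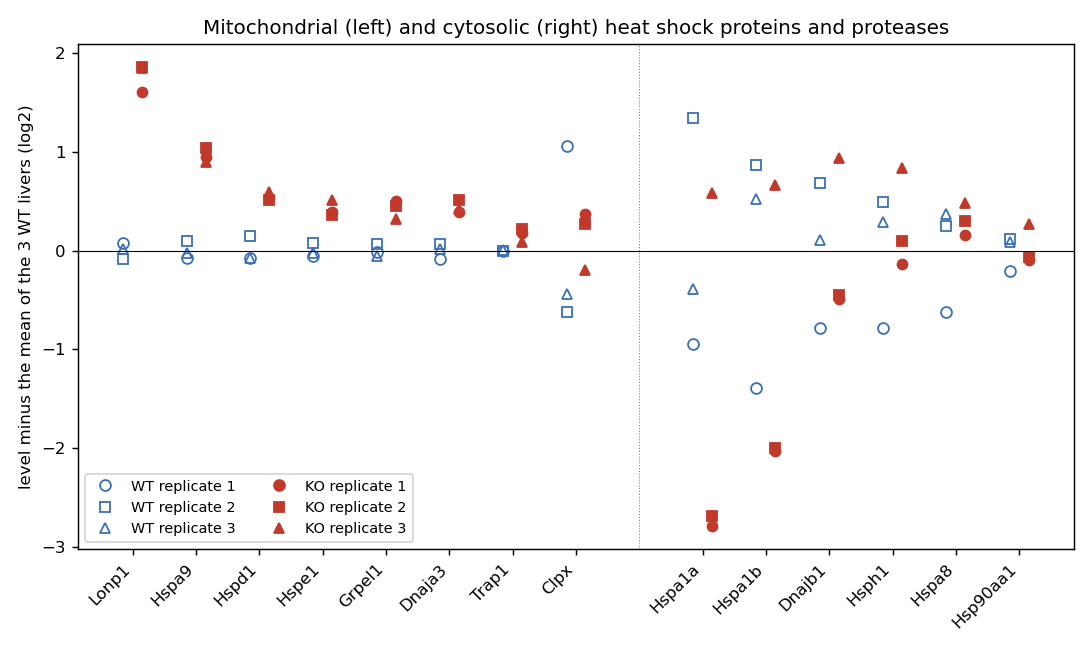
Level minus the mean of the 3 WT livers (log2, y axis) for 8 mitochondrial genes on the left and 6 cytosolic heat shock genes on the right, with a symbol for each liver. The KO livers lie close together in the mitochondrial chaperones, while KO replicate 3 (filled triangle) lies above the other KO livers in Hspa1a, with 9.22 against 5.84 and 5.94.

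The other genes of these pathways were counted from 5 lists. For comparison, 14.2% of all genes were higher and 9.75% lower, and 21.8% were higher when only genes above background were tested. Of 28 measured cytosolic chaperone genes 9 were higher and 0 lower, with a median of 0.11. At most 4 changed genes of a list are given with values. Here these were Hspb1, a small heat shock protein (1.08 ± 0.24, adjusted p = 0.0151), Dnaja2, a J-domain cochaperone (0.97 ± 0.092, adjusted p = 0.000324), and Cct2 and Cct4 (0.67 ± 0.094 and 0.60 ± 0.086), subunits of the TRiC ring that folds actin and tubulin. Of 8 TRiC subunits in the list, a subset singled out after its values were seen, 6 were higher.

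Of 22 further measured import genes 6 were higher and 0 lower, with a median of 0.13. Grpel2, the second exchange factor of the mitochondrial HSP70, stood at 8.11, 8.07 and 7.93 in WT and at 9.59, 9.46 and 9.41 in KO (1.45 ± 0.097, adjusted p = 5.96e-05). Chchd4, the oxidoreductase that folds the small TIM proteins by disulfide transfer, stood at 8.64, 8.71 and 8.78 in WT and at 9.83, 10.00 and 9.76 in KO (1.15 ± 0.099, adjusted p = 0.000199). Both groups were far apart in these genes. Mtx2, a metaxin of the outer membrane, and Dnajc15, a J-domain protein of the TIM23 motor, were higher by 0.47 ± 0.11 (adjusted p = 0.0198) and 0.45 ± 0.089 (adjusted p = 0.00913). Mtx2 missed the threshold without KO replicate 1, 2 or 3 (adjusted p = 0.0827, 0.0552 and 0.0505).

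Of 14 further measured protease and quality control genes 4 were higher and 2 lower, with a median of 0.19. Higher were Pitrm1, which degrades cleaved leaders (0.80 ± 0.11, adjusted p = 0.00189), the mitophagy receptor Fundc1 (0.79 ± 0.15, adjusted p = 0.00698), the peptidase Nln (0.67 ± 0.096, adjusted p = 0.00238) and the outer membrane ubiquitin ligase Mul1 (0.62 ± 0.098, adjusted p = 0.00344). The lower ones were Bnip3, a mitophagy receptor, and Lactb2, which fall outside the 4 by size and are named because they are the whole count. With the arrays centred on the controls neither passed, at -0.022 for Bnip3 and, with its sign turned, 0.099 for Lactb2. Of 15 measured fission and cristae genes 7 were higher and 1 lower, with a median of 0.23. The lower one was Mtfp1, a fission factor of the inner membrane, at 8.82, 8.82 and 8.80 in WT and 8.36, 8.27 and 8.11 in KO (-0.57 ± 0.096, adjusted p = 0.00464). With the arrays centred on the controls it differed by -0.13 and missed the threshold (adjusted p = 0.252). That was the highest p among its 16 alternatives, and the lowest was 0.00195. Higher were Chchd6, a cristae organiser (0.76 ± 0.13), the phosphatase Pgam5 (0.59 ± 0.12) and Chchd10 (0.52 ± 0.089).

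Among 20 measured stress response and mitochondrial biogenesis factors 6 were higher and 1 lower, with a median of 0.16. Ddit3, which encodes CHOP, stood at 6.96, 7.53 and 7.40 in WT and at 9.53, 9.65 and 9.83 in KO (2.37 ± 0.16). Atf5 stood at 11.00, 10.35 and 10.36 in WT and at 12.11, 11.96 and 12.12 in KO (1.50 ± 0.18, adjusted p = 0.00092), and Atf4 was higher by 0.79 ± 0.14 (adjusted p = 0.00533). These 3 factors were higher in the same livers as the mitochondrial genes, and no link between them was tested. The lower gene was Ppargc1a, the coactivator of mitochondrial biogenesis (-1.72 ± 0.16).

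**Figure D5:**
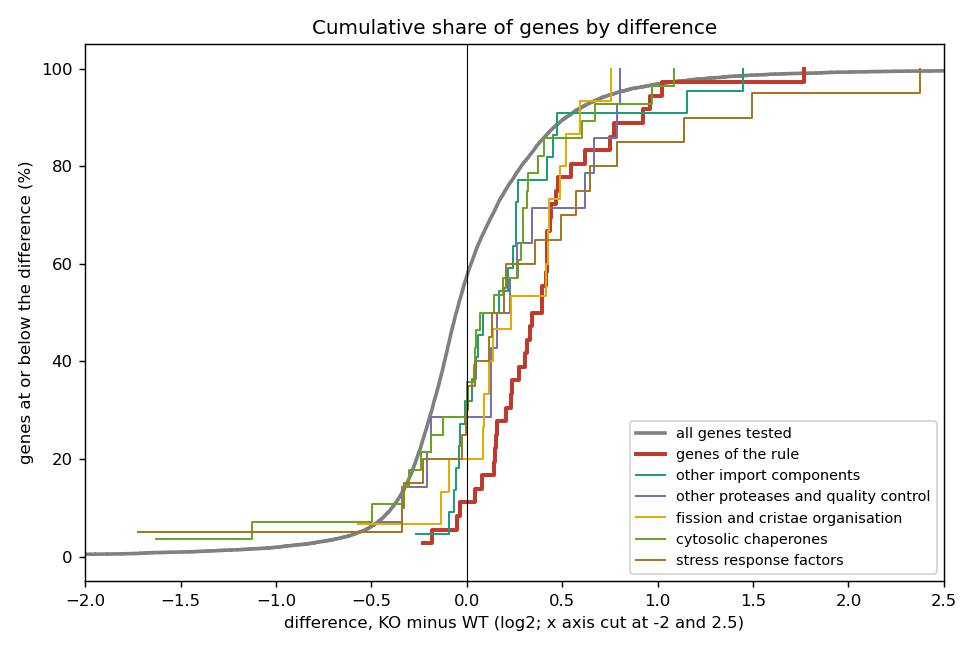
Cumulative share of genes (%, y axis) at or below each KO minus WT difference (log2, x axis) for all 18193 genes (grey), the 36 genes (red) and the 5 other lists, with the x axis cut at -2 and 2.5. The red curve lies to the right of the grey one through most of its range, with medians of 0.37 and -0.055.

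Markers of liver cell types were read on the same arrays, on which 14.2% of all genes were higher and 9.75% lower. Of 7 hepatocyte markers 0 were higher or lower, and their summed level ran from 16.54 to 16.59 in WT and from 16.58 to 16.64 in KO. A summed level is the log2 of the sum of the markers' unlogged levels, so the brightest markers weigh most in it. Of 6 proliferating cell markers 5 were higher and 0 lower, with a summed level from 7.19 to 7.44 in WT and from 8.17 to 8.76 in KO. Of 8 sinusoidal endothelial markers 1 was higher and 3 lower, with a summed level from 11.45 to 11.61 in WT and from 11.10 to 11.25 in KO. The higher one was Lyve1 (2.06 ± 0.31, adjusted p = 0.00287). Of 6 markers of bile duct and progenitor cells 2 were higher and 1 lower (7.88 to 8.27 in WT, 8.23 to 9.34 in KO). The higher ones were Cd24a (1.72 ± 0.50) and Prom1 (1.73 ± 0.20). Of 8 stellate cell and fibroblast markers 0 were higher and 1 lower (11.13 to 11.30 in WT, 10.83 to 11.21 in KO), and of 6 neutrophil markers 0 and 1 (7.61 to 8.48 in WT, 7.24 to 8.01 in KO). None of the 11 macrophage, 9 lymphocyte and 3 erythroid markers passed in either direction. The 6 markers called lower, Kdr, Fcgr2b, Clec4g, Reln, Krt19 and Ngp, did not pass with the arrays centred on the controls, where they stood between -0.070 and 0.13. Mean levels lay under the background of 4.90 in 4 of the 6 neutrophil and 2 of the 3 erythroid markers. The same held for 2 each of the lymphocyte, the proliferating cell, and the bile duct and progenitor markers. Krt19 and Ngp were among these dim markers. The part of these cell types in the differences of the 36 genes was not tested.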

How the data were processed

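Total RNA of 6 livers was hybridised to Affymetrix arrays, 1 array per liver. The deposited log2 levels per probe set were made by the authors with RMA, per the submitters' processing notes, whose version is not given in the sources used here. The log2 scale was read from the values. The table holds 45101 probe sets, 64 of them controls. In the platform annotation 34945 have 1 symbol, 932 have several and 9160 are absent. For each of 18193 genes the probe set with the highest mean was kept. No other column of per-sample values was used.

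The test was limma's (version 3.58.1, under R 4.3.3), using lmFit and eBayes (group as the factor, two-sided, 3 against 3 arrays, no filter), with Benjamini-Hochberg adjustment over all genes and a threshold of 0.05. Probe sets were tested likewise over 45037. The background of 4.90 is the 95th percentile of the means of 39 olfactory receptor genes, and the lowest value of the 36 genes was 7.32. Groups and replicate numbers come from the titles. All members are named, and of each further list up to 4 changed genes with the largest difference. The members, lists and rules were chosen with earlier results of these data known. The fit was also tested on simulated data of 18193 genes with noise drawn independently for each gene. In these, 68, 65 and 67 genes were given a change of 0.5, 1 and 2. The fit found 33.8% of them at a change of 0.5, 80% at 1 and 97% at 2, and 5.41% of its calls were false. Far fewer genes changed there than the 24% called between these livers, so the shares found need not hold for this comparison. Alternatives are given at the end.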

Additional observations from a re-analysis of the deposited data

How the results depend on the processing

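The count of the 36 genes higher in KO, 22 as deposited, was 7 at an adjusted p under 0.01 and ran from 8 to 19 when an array was left out, and 0 were lower throughout. Their median difference, 0.37 as deposited, moved to 0.81 under centring on the controls and to 0.26 with the mean of probe sets, and ran from 0.33 to 0.39 without an array. Over all genes, 2589 higher and 1774 lower became 11086 and 475 with the arrays centred on the controls, and 1285 and 732 at the stricter threshold. Without an array they ran from 1497 to 2424 and from 888 to 1679. Other settings kept these counts within 1.5 times. With a filter on dim genes, which kept 12042 genes, 22 of the 36 and 21.8% of the genes kept were higher. Quantile normalization gave 17 of the 36 (11.4% of all genes), and trend and robust eBayes 22 (14.8%). Replicate numbers did not pair the arrays (correlations of deviations 0.105, -0.018 and 0.105), and with the replicate block 18 of the 36 were higher (Yme1l1, Phb2, Timm23 and Timm50 missed the threshold), with 2471 higher and 1618 lower genes in all.

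Signs turned in these cases, and the cause was not tested. With the arrays centred on the controls Htra2, Tomm34, Timm17b and Pmpca stood at 0.39, 0.26, 0.21 and 0.40. With the mean of probe sets Htra2 and Pmpca stood at 0.049 and 0.11, with median centring Pmpca at 0.0020, and with quantile normalization Mfn2 at -0.064. Without probe sets of the s, x or a suffix, Dnaja3, Spg7 and Timm50, which then rest on dimmer probe sets, stood at -0.22, -0.17 and -0.20. Leaving out an array gave from -0.16 to 0.68 for Clpx, from -0.12 to 0.014 for Htra2, from -0.094 to 0.044 for Pmpca and from -0.060 to 0.13 for Mfn2. Of the 22 genes 19 kept their direction under all 16 alternatives. Of the 14 others, the 10 with differences above 0 as deposited each passed as higher under at least 1. Clpx did so only without WT replicate 1, where 13.3% of all genes were higher. The rest did so with the arrays centred on the controls, where 60.9% of all genes were higher. Of these, only Mfn1 also passed under another alternative, without probe sets of the s, x or a suffix. Htra2 and Pmpca, below 0 as deposited, also passed as higher with the arrays centred on the controls (adjusted p = 0.0161 and 0.0077). With 3 livers per group, the number of arrays limits the precision.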
